A study of Mus musculus with 6 samples.

Results

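The enzymes that modify the bases and sugars of tRNA and rRNA were compared between CD27SP NK cells of mice with intact and with floxed *Myc*. The list of 38 genes held tRNA and rRNA methyltransferases, pseudouridine synthases, dihydrouridine synthases and the enzymes that thiolate or extend the wobble uridine. It was written from known gene functions, at a time when earlier results of these data were known. Of the 38 genes, 37 were found among the 25690 gene symbols of the deposited tables, and *Trmt61b* was not analysed here. All 37 had enough counts for a test. RNA came from CD27SP NK cells, the immature NK1.1+CD27+CD11b- subset, sorted from BM on a C57BL/6 background, with 3 libraries each of *Ncr1cre Myc* wt/wt (wt/wt) and of mice with floxed alleles, *Ncr1cre Myc* fl/fl (fl/fl). Both genotypes carry the Cre recombinase in the *Ncr1* locus, which encodes NKp46, so recombination begins only when a cell starts to express this receptor, and the CD27SP subset is an early stage after that onset. The methods describe the mice as sex- and age-matched. The labels do not say whether a library came from 1 animal or from several, so the P-values measure the spread between libraries, which may be technical in part.

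Newly made tRNA is modified at many bases. Methyl groups, pseudouridine and dihydrouridine hold its fold together, and changes in and beside the anticodon set how it reads codons. The rRNA is methylated and pseudouridylated while the ribosome is assembled in the nucleolus. Cells that grow and divide need more of both, and genes for ribosome production are well known targets of Myc.

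The libraries held between 8101219 and 64962491 estimated counts. The first wt/wt library was the shallow one, and the other 5 held at least 54550907. Estimated counts were summed by gene symbol and compared with edgeR's quasi-likelihood test, with the replicate number as a block. Genes were called at an adjusted p under 0.01 if they also differed by 0.5 or more on the log2 scale. Levels between libraries are given as counts per Mio (CPM) after TMM normalization. *Myc* had 200.5, 183.4 and 164.3 CPM in libraries 1, 2 and 4 of wt/wt. In those of fl/fl it had 61.5, 64.6 and 76.5 CPM, a mean of 37.0% of the wt/wt level, so the genotypes did not overlap. The 13 NK cell markers summed to between 15141 and 15688 CPM in wt/wt and to between 17483 and 19248 CPM in fl/fl libraries, and none of them was at 0 in all libraries of a genotype. Summed markers of several other BM cells were higher in fl/fl libraries, whereas those of B and T cells overlapped between the genotypes. The 8 erythroid markers summed to between 611.1 and 845.0 CPM in wt/wt and to between 1258 and 1635 CPM in fl/fl, at most 0.163% of the counts. All 6 granulocyte-monocyte progenitor markers had a higher mean in fl/fl, and their sum was between 83.02 and 125.7 CPM in wt/wt and between 523.6 and 879.8 CPM in fl/fl. For the 10 basophil and mast cell markers the sum was between 31.9 and 37.1 CPM and between 123.8 and 335.2 CPM, with 9 of 10 means higher, *Cma1* called lower (log2 fold change −1.84, adjusted p = 0.00253, edgeR) and *Tpsb2* at 0 in all wt/wt and in 2 of 3 fl/fl libraries. The progenitor and the basophil and mast cell markers held at most 0.0880% and 0.0335% of the counts of a library. The part of these other cells in the results on the modification enzymes was not tested.

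The pseudouridine synthase *Pus7* and the tRNA guanosine methyltransferase *Mettl1* fell in fl/fl cells, and most other modification enzymes had smaller negative differences. Of the 37 genes, 31 had a negative log2 fold change and 6 a positive one, whereas 48.5% of the 15474 tested genes were negative and 51.5% positive. The median log2 fold change was −0.28, against 0.014 over all tested genes. Past the threshold, *Pus7* and *Mettl1* were lower, which is 2 of 37 genes against a background of 0.872% of all tested genes called lower. None was higher, against a background of 1.28%, and also at an unadjusted p below 0.05 none was higher and 14 were lower in edgeR (background 12.4% and 10.2%). DESeq2 called 8 lower and none higher (background 3.47% and 4.16%). When each gene was given its largest adjusted p over the 3 tools, which include limma-trend, 1 was lower and none was higher (background 0.504% and 0.931%). Without the replicate block edgeR called 3 lower and none higher (background 1.19% and 1.31%). With an adjusted p below 0.05 and no limit on the fold change, edgeR called 8 lower genes and no higher one (background 3.38% and 4.45%). The 8 genes were *Pus7*, *Mettl1*, *Wdr4*, *Dus4l*, *Pus3*, *Pus1*, *Nsun5* and *Nsun2*. The 3 fl/fl libraries lay below the 3 wt/wt libraries for 18 genes (background 15.1%), and above them for 1 (background 16.2%). In all 3 pairs of libraries with the same number, 22 genes were lower and 1 was higher in fl/fl (background 21.2% and 24.2%). Lower RNA in a bulk sample can come from less RNA per cell or from fewer cells that express the gene, and these cannot be told apart here.

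**Figure D1:**
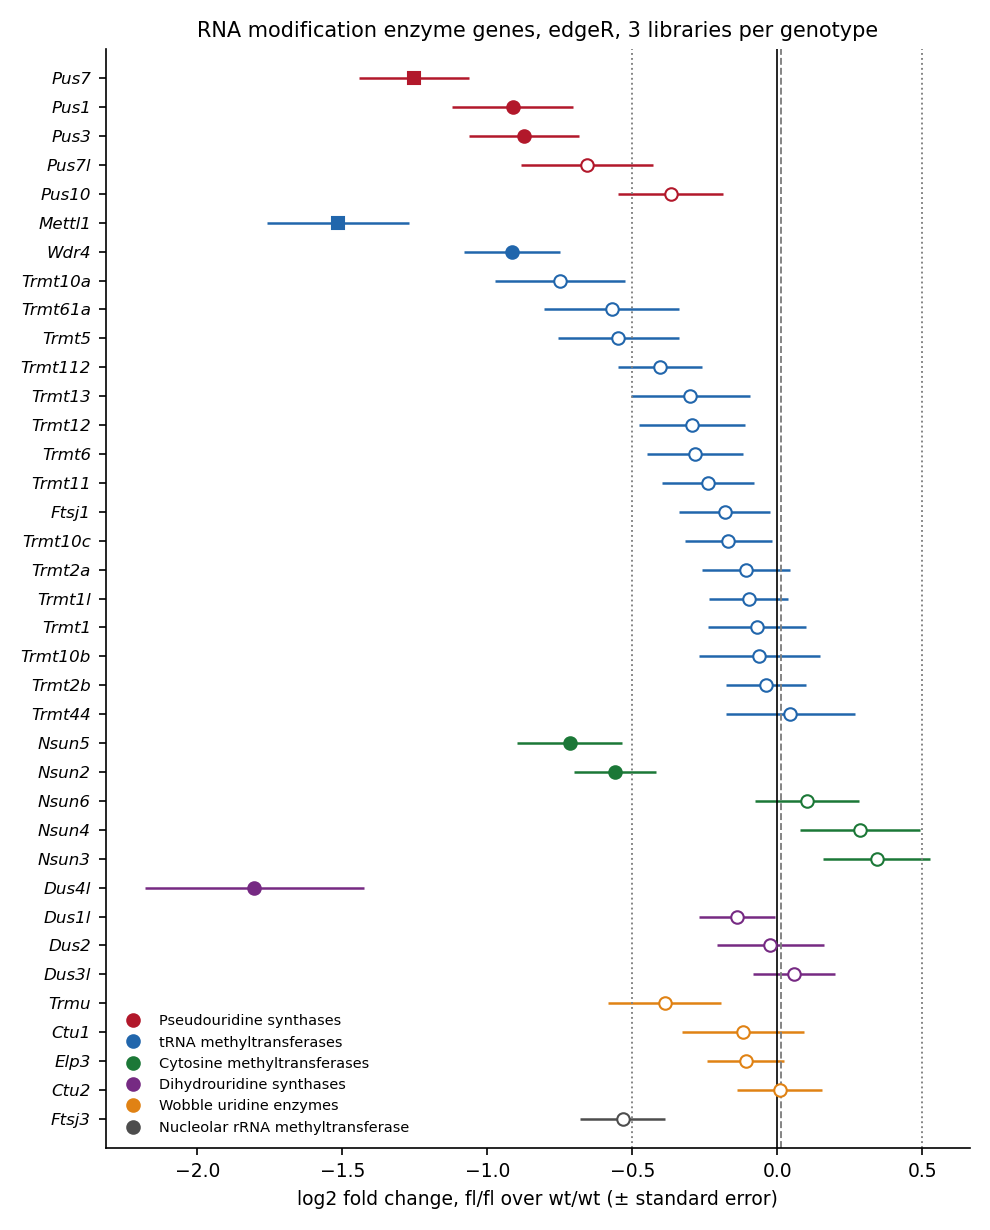
Log2 fold change (x axis, fl/fl over wt/wt, edgeR, bars: standard error) of the 37 modification enzyme genes, grouped by kind of enzyme. Squares passed the threshold, filled symbols had an adjusted p below 0.05, dotted lines mark a log2 fold change of 0.5 in either direction and the dashed line the median of all tested genes; *Pus7*, *Mettl1* and *Dus4l* lie farthest to the left and most wobble uridine enzymes near 0.

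All genes together held 0.155%, 0.158% and 0.149% of the counts in libraries 1, 2 and 4 of wt/wt, against 0.118%, 0.131% and 0.125% in those of fl/fl. Mean shares were 0.154 ± 0.00466% in wt/wt and 0.125 ± 0.00673% in fl/fl (SD, n = 3 each), with no overlap. In TPM, which corrects for transcript length, the sum was 1245 ± 56.8 and 1071 ± 33.9 (SD, n = 3 each). The list was led by *Trmt112* in both genotypes, at 234.3 ± 18.7 and 184.7 ± 18.8 TPM, and *Nsun2* was next, at 124.6 ± 6.13 and 91.1 ± 7.38 TPM (SD, n = 3 each). *Dus1l* came after them with 71.4 TPM in each genotype. *Trmt44* had the lowest level per length, at 4.31 ± 1.01 and 4.53 ± 0.617 TPM (SD, n = 3 each).

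The pseudouridine synthases turn uridine into its rotated isomer within the RNA chain. All 5 of this list had a negative log2 fold change, with a median of −0.87 (background 48.5% negative). For all 5 the fl/fl libraries lay below the wt/wt libraries (background 15.1% without overlap). Further pseudouridine synthases are given below with the other modification genes. *Pus7*, which acts on tRNA and also on mRNA, had 43.1, 36.6 and 28.6 CPM in the wt/wt libraries 1, 2 and 4 and 13.6, 16.1 and 15.0 CPM in the fl/fl libraries 1, 2 and 4. Every fl/fl library was thus well below the lowest wt/wt library, and the fl/fl mean was 41.3% of the other. *Pus7* fell by 1.25 on the log2 scale (standard error 0.19, adjusted p = 0.00592, edgeR), and it was the only modification enzyme past the threshold in edgeR, DESeq2 and limma-trend at once, where the largest adjusted p was 0.00908. In edgeR the adjusted p was above the limit of 0.01 without replicate 1 (0.0268), without replicate 2 (0.0165), with scaling by library size only (0.0125) and with offsets from effective transcript lengths (0.0373).

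*Pus3*, which modifies the anticodon stem, had 36.1, 28.6 and 30.4 CPM in the wt/wt and 14.8, 18.9 and 18.01 CPM in the fl/fl libraries 1, 2 and 4. On the log2 scale it differed by −0.87 (standard error 0.19, adjusted p = 0.0237, edgeR). *Pus1*, an enzyme for tRNA of the nucleus and of mitochondria, had 27.3, 29.6 and 28.5 CPM and 15.2, 11.2 and 20.1 CPM in the same order. The wt/wt libraries were close to each other, while the fl/fl libraries were spread over a wider range below them. *Pus1* differed by −0.91 on the log2 scale (standard error 0.21, adjusted p = 0.0284, edgeR). Of the exon length of *Pus1*, 23.8% lies opposite *Gm26515*, whose counts were not analysed here. *Pus7l*, a relative of *Pus7*, and *Pus10* had log2 fold changes of −0.66 and −0.37 with adjusted p-values in edgeR of 0.116 and 0.270.

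The exons of *Pus3* lie opposite those of *Hyls1* for 88.1% of their length, and the library kit does not mark the strand, so that reads of the shared part cannot be told apart. *Hyls1* itself had 8.85 ± 0.407 CPM in wt/wt and 6.77 ± 2.62 CPM in fl/fl libraries (SD, n = 3 each) with a log2 fold change of −0.47 (adjusted p = 0.334, edgeR). *Pus7* (ENSMUSG00000057541.14) lies at chr5:23740648-23783711 on the minus strand of GRCm38, and a single protein-coding transcript held between 88.4% and 94.8% of its counts in every library.

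**Figure D2:**
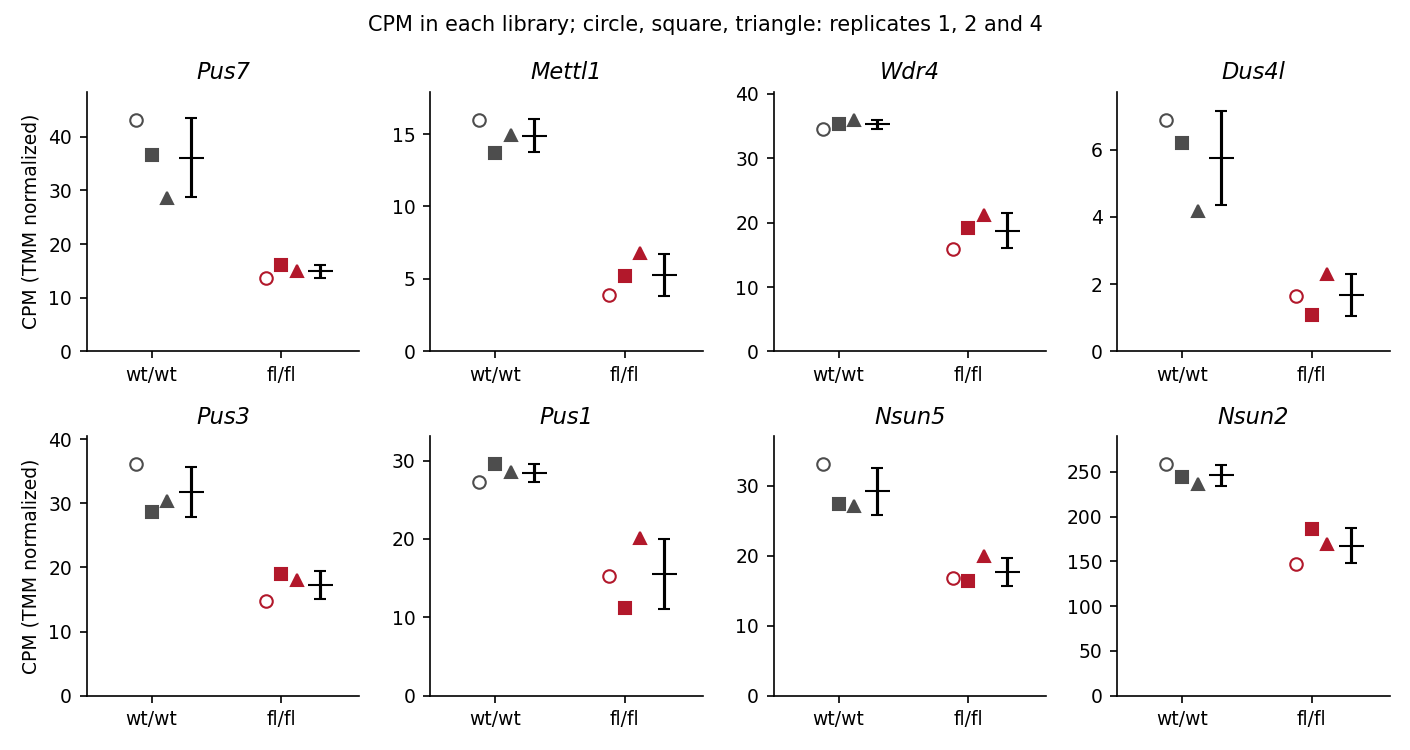
CPM (y axis, from 0, TMM normalized) in each library for the 8 genes with an adjusted p below 0.05 in edgeR, with wt/wt in grey and fl/fl in red. Open circles are replicate 1, squares replicate 2 and triangles replicate 4, black bars give mean ± SD (n = 3); in all 8 genes the red symbols lie below the grey ones.

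*Mettl1* is the catalytic subunit and *Wdr4* the scaffold of the complex that methylates a guanosine in the variable loop of tRNA. *Mettl1* had 16.0, 13.7 and 14.9 CPM in the wt/wt and 3.88, 5.21 and 6.77 CPM in the fl/fl libraries 1, 2 and 4. The fl/fl mean was 35.5% of the wt/wt mean and the genotypes lay far apart. *Mettl1* fell by 1.51 on the log2 scale (standard error 0.24, adjusted p = 0.00756, edgeR). The adjusted p was 0.0105 in limma-trend, and in edgeR 0.0292 without replicate 1, 0.0258 without replicate 2, 0.0149 with scaling by library size only, 0.0249 with offsets from effective lengths, and 0.0145 without both the shallow wt/wt library and the replicate block. *Mettl1* (ENSMUSG00000006732.14) lies at chr10:127041414-127046365 on the plus strand of GRCm38. *Wdr4* had 34.6, 35.3 and 36.0 CPM in the wt/wt and 16.0, 19.1 and 21.2 CPM in the fl/fl libraries 1, 2 and 4. Its wt/wt values were nearly equal, and the highest fl/fl library was still well below them. At −0.92 on the log2 scale (standard error 0.17, adjusted p = 0.0113, edgeR) *Wdr4* missed the threshold, which it passed without the replicate block (adjusted p = 0.00685, edgeR). The counts of *Mettl1* came mainly from 2 protein-coding transcripts, and protein-coding transcripts held 78.1 ± 7.04% of its counts in wt/wt and 66.9 ± 3.92% in fl/fl libraries (SD, n = 3 each). For *Wdr4* this share was 42.1 ± 5.01% and 42.2 ± 5.82% (SD, n = 3 each), since a transcript with a retained intron took much of the remainder. An antisense gene that was not analysed here lies opposite 10.8% of the exon length of *Wdr4*.

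The other tRNA methyltransferases did not pass the test. Counting *Mettl1* and *Wdr4*, the group had 18 genes, of which all but *Trmt44* were negative, at a median of −0.26 on the log2 scale. For 8 of the 18, again with *Mettl1* and *Wdr4*, the fl/fl libraries lay below the wt/wt libraries (background 15.1%). *Trmt6* and *Trmt61a* form the enzyme that methylates an adenosine in the T loop. *Trmt6*, the subunit that binds tRNA, had 56.8, 51.7 and 57.1 CPM in the wt/wt and 42.3, 55.9 and 39.3 CPM in the fl/fl libraries 1, 2 and 4. *Trmt61a*, the catalytic subunit, had 7.28, 13.6 and 12.5 CPM and 6.26, 7.15 and 8.63 CPM in the same order. The genotypes overlapped in both genes, and in *Trmt61a* only the shallow wt/wt library, with 56 counts of it, lay within the fl/fl range. The log2 fold changes were −0.28 and −0.57 (adjusted p = 0.354 and 0.180, edgeR).

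*Trmt112* is a small protein that activates several methyltransferases of tRNA, rRNA and proteins, among them *Trmt11*. It had 115.4, 95.9 and 106.6 CPM in the wt/wt and 80.9, 88.0 and 71.2 CPM in the fl/fl libraries 1, 2 and 4, which did not overlap. *Trmt11* had 37.8, 35.8 and 37.0 CPM and 28.2, 35.8 and 30.01 CPM in the same order, so that the second libraries of the genotypes were almost equal. Neither gene passed the test, with log2 fold changes of −0.41 and −0.24 and adjusted p-values in edgeR of 0.126 and 0.432. The exons of *Trmt112* overlap those of *Prdx5* on the opposite strand for 33.2% of their length. *Prdx5* had a log2 fold change of 0.31 (adjusted p = 0.244, edgeR).

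*Trmt10a* and *Trmt5*, which methylate guanosine beside the acceptor stem and beside the anticodon, had log2 fold changes of −0.75 and −0.55 (adjusted p = 0.0760 and 0.149, edgeR). Neither gene had overlapping genotypes, with fl/fl lower. The further genes of the group were nearer to 0. The log2 fold changes were −0.29 for *Trmt12*, which takes part in wybutosine synthesis, −0.30 for *Trmt13*, −0.18 for the ribose methyltransferase *Ftsj1*, −0.17 for *Trmt10c*, a subunit of mitochondrial RNase P, −0.11 for *Trmt2a*, −0.099 for *Trmt1l*, −0.071 for *Trmt1*, −0.062 for *Trmt10b*, −0.039 for *Trmt2b* and 0.045 for *Trmt44*. Their adjusted p-values in edgeR lay between 0.389 for *Trmt12* and 0.943 for *Trmt44*.

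**Figure D3:**
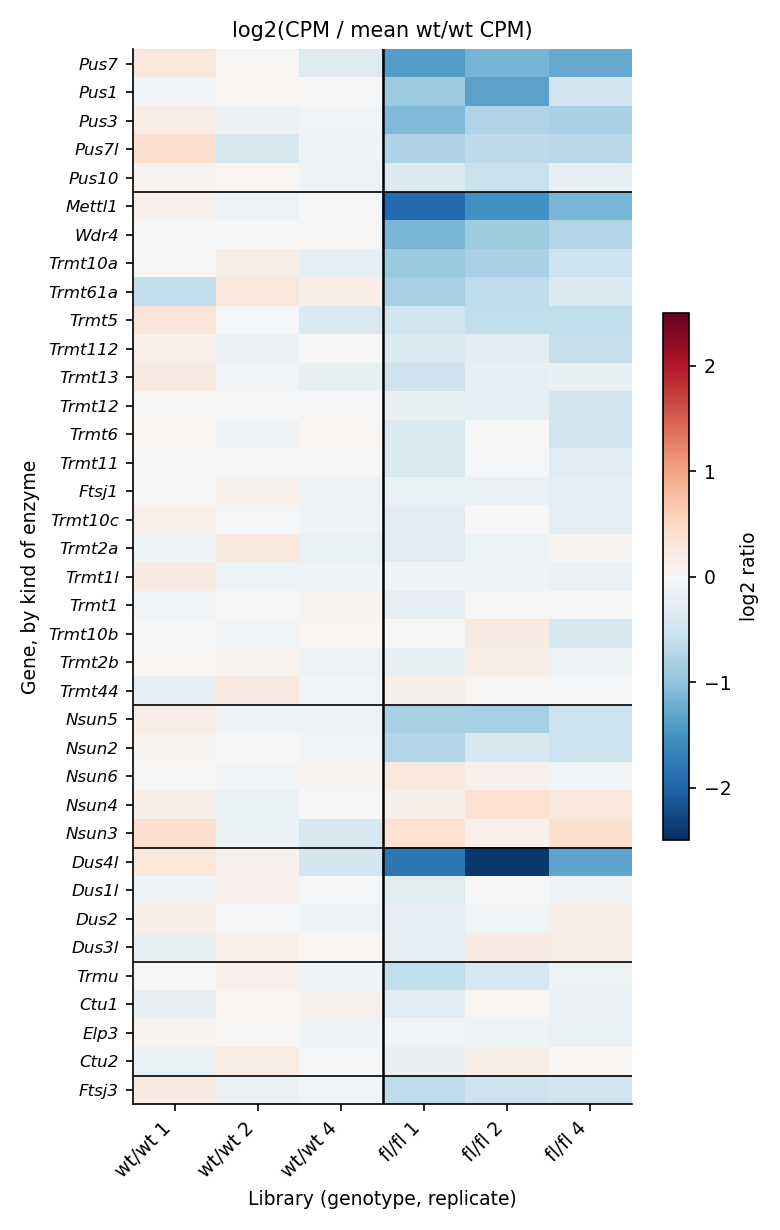
Log2 ratio of the CPM in each library (columns) to the mean wt/wt CPM of the same gene (rows), with lines between the kinds of enzyme and between the genotypes. Blue is lower; the pseudouridine synthases, *Mettl1*, *Wdr4*, *Dus4l*, *Nsun2* and *Nsun5* are blue in all 3 fl/fl libraries, while *Nsun4* is above its wt/wt mean in them.

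The Nsun family adds methyl groups to cytosine, and its members had values on both sides of 0. *Nsun5*, which acts on the RNA of the large ribosomal subunit, had 33.1, 27.4 and 27.1 CPM in the wt/wt and 16.8, 16.4 and 20.0 CPM in the fl/fl libraries 1, 2 and 4. The genotypes did not overlap, and *Nsun5* differed by −0.72 on the log2 scale (standard error 0.18, adjusted p = 0.0417, edgeR). It shares 15.4% of its exon length with *Pom121* on the other strand, which had a log2 fold change of 0.10 (adjusted p = 0.814, edgeR). *Nsun2*, the main tRNA enzyme of the family, had 246.4 ± 11.6 CPM in wt/wt and 167.7 ± 19.2 CPM in fl/fl cells (SD, n = 3 each). On the log2 scale it differed by −0.56 (standard error 0.14, adjusted p = 0.0418, edgeR), also without overlap. The mitochondrial enzymes *Nsun3* and *Nsun4*, which act on a tRNA and on rRNA of this organelle, were on the other side of 0. *Nsun3* had 42.2, 28.4 and 23.9 CPM in the wt/wt and 40.8, 34.3 and 41.3 CPM in the fl/fl libraries 1, 2 and 4, where the shallow library was the highest of all. *Nsun4* had 12.7, 10.3 and 11.5 CPM and 12.8, 15.1 and 14.1 CPM, and *Nsun6* had 20.8, 19.9 and 22.0 CPM and 25.3, 22.7 and 19.9 CPM in the same order. Only *Nsun4* of these 3 had no overlap, by a narrow gap between its first libraries. The log2 fold changes of *Nsun3*, *Nsun4* and *Nsun6* were 0.34, 0.29 and 0.10 (adjusted p = 0.314, 0.469 and 0.806, edgeR). For *Nsun4* the log2 fold change was −0.070 with offsets from effective transcript lengths. That of *Nsun3* ranged from 0.097 to 0.56 over the other settings.

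Of the dihydrouridine synthases, which reduce uridines of tRNA, *Dus4l* stood apart from the rest. It had 6.89, 6.19 and 4.18 CPM in the wt/wt and 1.63, 1.08 and 2.31 CPM in the fl/fl libraries 1, 2 and 4, a mean of 29.1% of the wt/wt level. These values rest on few counts, with 53 in the shallow library and between 59 and 138 in the fl/fl libraries. The log2 fold change was −1.80, the most negative of the list, but with a standard error of 0.38 the adjusted p in edgeR was 0.0206. Its only protein-coding transcript held 83.02%, 74.8% and 67.3% of its counts in wt/wt and 49.0%, 27.3% and 63.8% in fl/fl libraries 1, 2 and 4, and a short non-coding transcript held most of the others. With offsets from effective lengths, which weigh this short transcript differently, the log2 fold change was −0.94. *Dus1l*, *Dus2* and *Dus3l* had log2 fold changes of −0.14, −0.024 and 0.059, with adjusted p-values in edgeR of 0.606, 0.965 and 0.866.

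The 4 enzymes of the wobble uridine had log2 fold changes between −0.39 and 0.0082, and none had an unadjusted p below 0.05 in edgeR (background 10.2% lower and 12.4% higher). *Ctu1* and *Ctu2* together thiolate this base in cytosolic tRNA. *Ctu1* had 9.22, 10.9 and 11.3 CPM in the wt/wt and 8.66, 10.8 and 9.50 CPM in the fl/fl libraries 1, 2 and 4. *Ctu2* had 32.4, 41.3 and 35.0 CPM and 31.8, 39.8 and 37.5 CPM in the same order. The libraries of the genotypes were interleaved in both genes, with log2 fold changes of −0.12 (standard error 0.21) and 0.0082 (standard error 0.15) and adjusted p-values in edgeR of 0.812 and 0.984. *Ctu2* shares 47.3% of its exon length with *Piezo1* on the other strand, and *Piezo1* had a log2 fold change of 0.0092. *Elp3*, the catalytic subunit of Elongator, came to −0.11 (adjusted p = 0.701, edgeR). *Trmu*, which thiolates mitochondrial tRNA, had one of −0.39 (adjusted p = 0.281, edgeR), with 3 fl/fl libraries below all wt/wt libraries.

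*Ftsj3* methylates riboses of rRNA precursors in the nucleolus. It had 101.4 ± 13.5 CPM in wt/wt and 69.6 ± 3.54 CPM in fl/fl cells (SD, n = 3 each), without overlap. On the log2 scale *Ftsj3* differed by −0.53 (standard error 0.15, adjusted p = 0.0551, edgeR). The 5 measured enzymes of this list classed as mitochondrial alone, which leaves out *Pus1*, were *Trmt2b*, *Trmt10c*, *Trmu*, *Nsun3* and *Nsun4*. They had a median of −0.039 and none had an unadjusted p below 0.05 in edgeR (background 10.2% lower and 12.4% higher). Some mitochondrial enzymes outside this list were lower and are given below.

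Promoters were searched for the letters CACGTG, the canonical E-box to which Myc binds together with Max, and which reads the same on both strands. Promoter sequences of RefSeq on GRCm38.p6, which run from 250 bases before to 50 bases after a start site, were found for 32 of the 37 genes, and not for *Elp3*, *Nsun5*, *Trmt1*, *Trmt12* and *Trmt6*. The motif was present for 6 of the 32 genes (18.8%), against 10.98% of the tested genes with a promoter in the table, 8.09% of all 27025 genes in it and 7.15% of all 32851 promoters. These 6 genes were *Pus7*, *Mettl1*, *Pus3*, *Pus1*, *Trmt10a* and *Trmt61a*. Each window of 30 bases below is shown on the strand of its gene because it holds a match in a gene described above, with the motif in capitals.
Pus7: ggcgcagcgccgCACGTGtgcgagcccggc
Mettl1: agctcggctctcCACGTGgactgcgtggca
Pus3: tctcgcccctggCACGTGctgccacccccg
Pus1: tccgccttcgtgCACGTGgtcagcttcggg
Trmt10a: cccctcgccactCACGTGccgtcttccaga
Trmt61a: ccgccgtggagcCACGTGtggagccgggag
On GRCm38.p6 the windows are chr5:23783666-23783695 on the minus strand for *Pus7*, chr10:127041950-127041979 on the plus strand for *Mettl1*, chr9:35558416-35558445 on the plus strand for *Pus3*, chr5:110780576-110780605 on the minus strand for *Pus1*, chr3:138143772-138143801 on the plus strand for *Trmt10a* and chr12:111678118-111678147 on the plus strand for *Trmt61a*. The flanking letters differ between the genes, and only the CACGTG core is common to them.

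The motif lay 28 bases after an annotated start in *Pus7*, 30 in *Mettl1*, 25 in *Trmt61a* and 3 or 22 in *Pus1*, which has overlapping promoters, and 132 and 15 bases before it in *Pus3* and *Trmt10a*. All 6 genes had a negative log2 fold change, from −1.51 to −0.57 with a median of −0.89. A negative value was also found for 31 of the 37 genes together. In the 26 genes with a promoter in the table that lacked these letters the median was −0.15 and the range from −1.80 (*Dus4l*) to 0.34 (*Nsun3*). *Wdr4* and *Nsun2*, at −0.92 and −0.56, were among these 26. The median log2 fold change was 0.0053 in 1195 tested genes with CACGTG and 0.027 in 9691 without it. Among these, 49.3% and 47.3% had a negative value, and 1.09% and 0.949% were called lower. The genotypes did not overlap, with fl/fl lower, in 18.7% and 15.5%. The variant CACGCG, searched on both strands, was found for 6 of the 32 genes and 10.5% of all genes in the table. Its share among the tested genes alone was not computed. The 6 genes with this variant were *Trmt10a*, *Nsun2*, *Trmt10c*, *Ctu1*, *Trmt2a* and *Dus3l*, with log2 fold changes of −0.75, −0.56, −0.17, −0.12, −0.11 and 0.059. A match of letters is not evidence of binding.

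**Figure D4:**
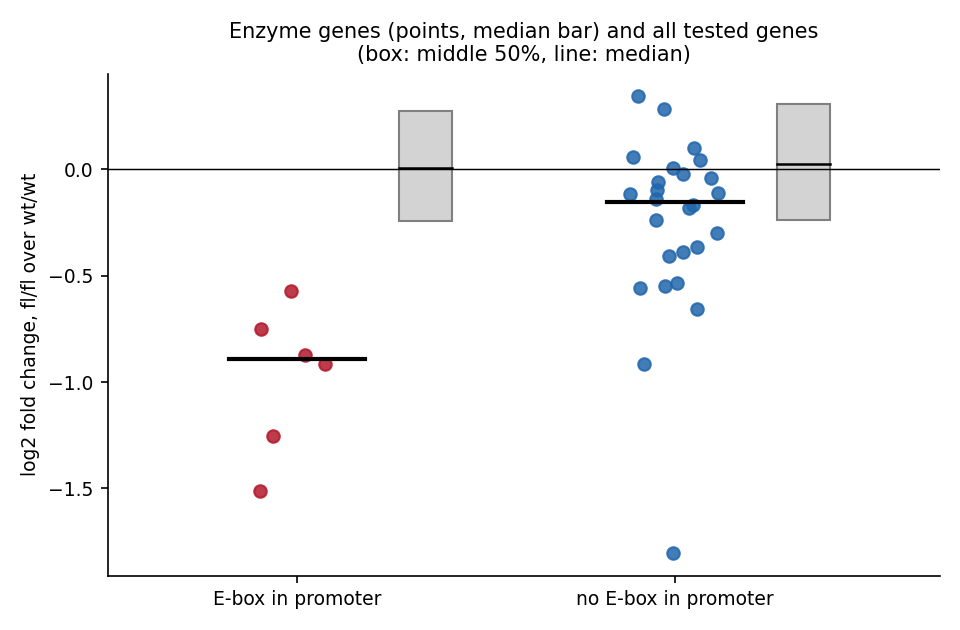
Log2 fold change (y axis, fl/fl over wt/wt, edgeR) of the modification enzyme genes with (6, red) and without (26, blue) an E-box in the RefSeq promoter, with a bar at the median. Grey boxes give the interquartile range of all tested genes of the same class, whose medians are close to 0; all 6 red points lie below 0.

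Other genes of tRNA and rRNA modification were looked at for comparison. Of a list of 73 genes, 72 were measured and tested, with 63 negative and 9 positive log2 fold changes and a median of −0.28. Past the threshold 3 were lower (background 0.872%) and none was higher, and at an unadjusted p below 0.05 in edgeR 20 were lower (background 10.2%) and none was higher. In DESeq2 11 were lower past the threshold (background 3.47%) and none was higher. By the largest adjusted p over the 3 tools 2 were lower (background 0.504%), since *Dkc1* then had an adjusted p of 0.0106 from limma-trend. The 3 genes were parts of the snoRNA-guided machines of the nucleolus. *Nop58*, a core protein of the box C/D particles that guide ribose methylation, fell by 1.29 on the log2 scale (SE 0.14, adjusted p = 0.00204, edgeR). *Nhp2* and *Dkc1*, a core protein and the pseudouridine synthase of the box H/ACA particles, had −0.92 (standard error 0.14) and −1.08 (standard error 0.17), with adjusted p-values in edgeR of 0.00553 and 0.00749. *Pusl1*, *Trub1*, *Rpusd3* and *Rpusd2*, further pseudouridine synthases, had log2 fold changes of −1.15, −0.51, −0.36 and −0.29, without overlap of the genotypes. *Trub2*, *Rpusd4* and *Rpusd1* had −0.21, −0.21 and 0.13, and there the genotypes overlapped. The Elongator subunits *Elp2*, *Elp4*, *Elp5* and *Elp6* did not pass, like *Elp3*, with log2 fold changes of −0.30, −0.40, −0.096 and −0.029. The mitochondrial enzymes *Mrm1*, *Mrm3* and *Cdk5rap1* had −0.47, −0.78 and −0.76, with unadjusted p-values in edgeR of 0.0258, 0.00438 and 0.00196. *Mrm2*, *Mto1* and *Gtpbp3* had −0.099, −0.34 and 0.099, each with an unadjusted p above 0.05 in edgeR. This list was not sorted by compartment, so these are examples. The 19 measured cytosolic aminoacyl-tRNA synthetases, which charge the same tRNAs with amino acids, had a median of −0.35, and none passed the threshold (background 0.872% lower and 1.28% higher). In edgeR 11 were lower and none was higher at an unadjusted p below 0.05 (background 10.2% and 12.4%), and 3 were lower at an adjusted p below 0.05 (background 3.38%). The difference between these lists was not tested.

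**Figure D5:**
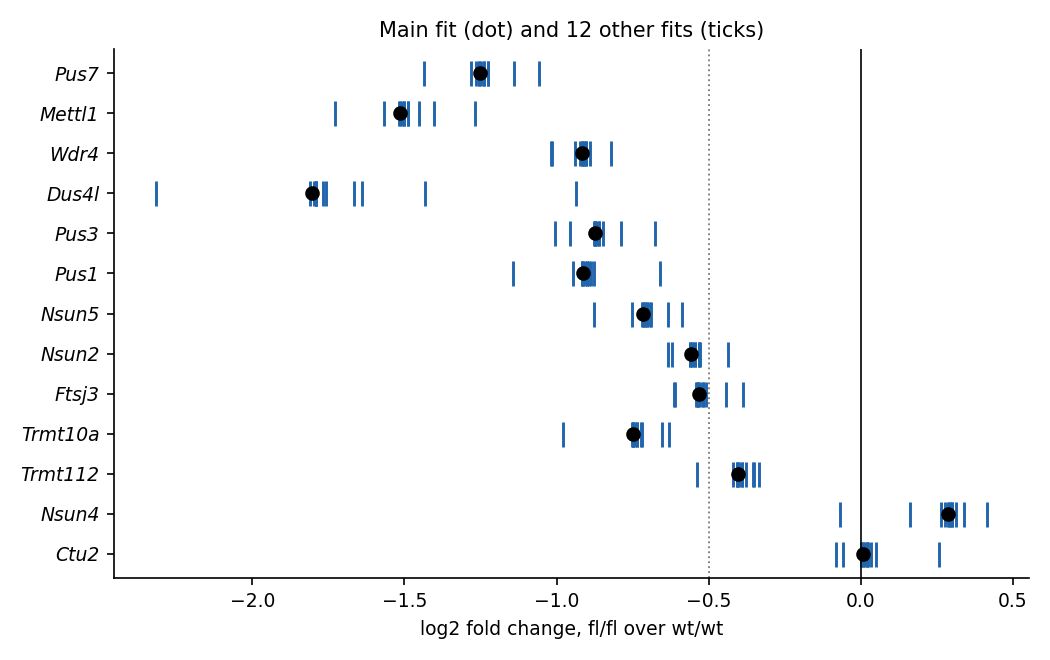
Log2 fold change (x axis) of 13 modification enzyme genes in the fit described here (black dot) and in 12 other fits with another tool, scaling or filter, without the block or without a library or replicate (blue ticks). *Pus7*, *Mettl1*, *Wdr4*, *Dus4l*, *Pus3*, *Pus1*, *Nsun5* and *Trmt10a* stay left of −0.5 in every fit. *Dus4l* moves most, and the ticks of *Nsun4* and *Ctu2* lie on both sides of 0.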

How the data were processed

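Per transcript, the files deposited by the authors give the estimated count, the TPM and the effective length in every library. Their column names match kallisto, although Salmon with GRCh38 is named in the methods and the submitters' notes, and the 100583 identifiers are of mouse transcripts. Libraries were made with the SMART-Seq v4 kit and sequenced single end. Estimated counts of the 100239 transcripts found in GENCODE M21 (GRCm38) were summed by symbol and rounded, and the unmatched transcripts held at most 0.169% of the counts. Genes kept by filterByExpr (15474) were compared with edgeR (4.0.16, R 4.3.3) after TMM normalization, with Benjamini-Hochberg adjustment over all of them. DESeq2 (1.42.0) and limma-trend (3.58.1) were alternatives. The replicate number was a block, because the study calls its analysis paired. Alternatives left out the block, each replicate or the shallow library, or changed the tool, the scaling, the filter, the use of effective lengths or the limits for a call. The tests were tried on simulated data.

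The members and lists were chosen with earlier results of these data known. Every member is named; values per library are given for *Myc*, members past the threshold, the 5 next by adjusted p, the 3 largest positive log2 fold changes and partner subunits. Of the other modification genes, those past the threshold were named by rule. *Elp2*, *Elp4*, *Elp5*, *Elp6*, the further pseudouridine synthases and the mitochondrial enzymes were added after their values were seen. Of the marker lists besides those in the results, summed CPM ranged in wt/wt and then in fl/fl libraries from 4.81 to 17.8 and 17.2 to 32.5 (neutrophils), 1655 to 1863 and 2071 to 2353 (monocytes), 579.9 to 1500 and 576.1 to 757.2 (B cells), 256.2 to 513.2 and 276.2 to 364.4 (T cells), 319.5 to 376.0 and 697.2 to 874.6 (plasmacytoid dendritic cells), and 8.70 to 15.1 and 22.2 to 70.3 (platelets and megakaryocytes).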

Additional observations from a re-analysis of the deposited data

How the results depend on the processing

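The number of genes called lower was 2. It was 3 without the replicate block, 1 without wt/wt replicate 1 alone (fitted with no replicate block), 8 in DESeq2, 1 in limma-trend, 1 by the largest adjusted p of the 3 tools, 8 at an adjusted p below 0.05, 6 with no filter, 0 with library sizes only and 0 with offsets from effective lengths, and from 0 to 3 with a replicate left out. It was 0 without replicate 1 and 0 without replicate 2. Leaving out the block added *Wdr4* and moved the calls among the other modification genes from 3 to 5. Deviations of same-numbered libraries from their genotype means correlated at −0.0121, −0.0198 and 0.0505 for replicates 1, 2 and 4, none of them above 0.1, so a pairing by number was not seen in these values. No setting called a gene higher. The median of the list stayed between −0.31 and −0.20. In 28 of 37 genes the direction was kept in all 12 other fits, and the other 9 changed sign in at least 1. With offsets from effective lengths the log2 fold changes were 0.22 for *Trmt1*, −0.00051 for *Trmt44*, −0.070 for *Nsun4* and 0.011 for *Dus2*. Without wt/wt replicate 1 they were −0.057 for *Trmt44*, 0.041 for *Dus2*, −0.038 for *Dus3l* and −0.083 for *Ctu2*. With at least 10 counts in every library *Dus2* had 0.0017. With a replicate left out in turn they ranged from −0.30 to 0.027 for *Trmt2a*, from −0.093 to 0.049 for *Trmt2b*, from −0.23 to 0.12 for *Trmt10b*, from −0.087 to 0.19 for *Trmt44*, from −0.20 to 0.13 for *Dus2*, from −0.00094 to 0.10 for *Dus3l* and from −0.058 to 0.048 for *Ctu2*. The causes were not tested. The lowest count of a member gene was 53, in the shallow library.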
